A study of Homo sapiens with 8 samples.

Results

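The genes described are the 10 members of the retinoblastoma (RB) checkpoint named RB1, RBL1, RBL2, CDKN2A, CDKN2B, CDKN2C, CDKN2D, CDKN1B, CDKN1C and CCND1. They were taken by symbol from gene count tables that list 58828 genes, and all 10 were found. RNA was sequenced from 22RV1 and DU145 cells, which are established lines of human prostate cancer. Both were transduced with a lentiviral pLVX-TetOne-Puro vector that was either empty or carried HA-tagged PAGE4 under a doxycycline-inducible promoter, and was selected with puromycin. All cells received doxycycline, and were then given PBS or 200 mM H2O2 for 12 h before collection, which gives 8 conditions with 1 library each. This dose is the one in the sample labels and the methods, and the study names other H2O2 doses for some of its other assays. Each construct in a line is 1 transduced culture, so that construct and culture cannot be told apart. RNA was extracted with Trizol in the sample labels and with a column kit in the methods of the study.

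RB1, RBL1 and RBL2 encode the pocket proteins RB, p107 and p130, which bind E2F transcription factors and hold back the genes of DNA replication. Cyclin D1, encoded by CCND1, activates CDK4 and CDK6, which phosphorylate the pocket proteins and release E2F. The INK4 inhibitors p16INK4a (CDKN2A), p15INK4b (CDKN2B), p18INK4c (CDKN2C) and p19INK4d (CDKN2D) block CDK4 and CDK6, and the Cip/Kip inhibitors p27 (CDKN1B) and p57 (CDKN1C) act mainly on CDK2. CDKN2A also encodes p14ARF, which inhibits MDM2, from another first exon. DU145 cells are known for making no functional RB protein. The counts hold no information on protein or phosphorylation.

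Total counts ranged from 25482984 to 43310401 per library. PAGE4 had counts of 1, 0, 1 and 1 in the 4 vector libraries and from 1001 to 1489 in the 4 PAGE4 libraries. Of 8 marker genes of 22RV1 cells, 7 could be tested and 7 of 7 were higher in 22RV1 cells, whereas KLK3, KLK2, TMPRSS2 and FOLH1 were at or under 3 counts in every DU145 library. Of 8 marker genes of DU145 cells, 7 could be tested, 5 were higher in DU145 cells and LGALS1 was lower. Between the lines, 63.2% of all genes tested passed in either direction. With H2O2, 7 of 7 of the 22RV1 markers tested were lower in 22RV1 cells, where 27.7% of all genes tested passed in either direction. The summed level of the 8 22RV1 markers ranged from 20456 to 54209 over the 22RV1 libraries. Their part in the results below was not tested. KRT5, which is on the DU145 list, was at or under 3 counts in all 8 libraries. With no second library of any condition, the p-values below measure the spread between these 8 libraries. The H2O2 and PBS pairs of a line come from its vector and its PAGE4 culture, and share the cell line. The PAGE4 and vector pairs of a line use the same cultures with PBS and with H2O2. Intervals given for pairs of libraries cover counting error only. In RNA from whole cultures, fewer cells expressing a gene and less RNA per cell cannot be told apart.

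Promoter sequences are shown for RBL1 and CDKN2A, because RBL1 was the only member with E2F motifs among those whose promoter was searched and because the CDKN2A count adds up transcripts from separate starts. They are the 250 bases before the transcript start in RefSeq on GRCh38.p14, written 5′ to 3′ on the strand of the gene. The RBL1 window lies at chr20:37095998-37096247 on the minus strand, with capitals marking matches to an E2F motif.
RBL1: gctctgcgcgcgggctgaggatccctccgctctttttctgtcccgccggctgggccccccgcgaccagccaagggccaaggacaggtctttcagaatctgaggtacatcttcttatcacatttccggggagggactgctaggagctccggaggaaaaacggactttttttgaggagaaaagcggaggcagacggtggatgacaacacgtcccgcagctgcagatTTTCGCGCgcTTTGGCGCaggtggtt
The CDKN2A windows lie at chr9:21995325-21995574 before the first exon used for p14ARF and at chr9:21974858-21975107 before that used for p16INK4a, both on the minus strand and without a match.
CDKN2A, p14ARF start: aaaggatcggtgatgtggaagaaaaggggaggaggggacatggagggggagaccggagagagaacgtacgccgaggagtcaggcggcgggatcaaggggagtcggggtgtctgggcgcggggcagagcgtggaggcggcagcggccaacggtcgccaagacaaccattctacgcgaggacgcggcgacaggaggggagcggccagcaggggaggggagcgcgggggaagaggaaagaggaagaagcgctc
CDKN2A, p16INK4a start: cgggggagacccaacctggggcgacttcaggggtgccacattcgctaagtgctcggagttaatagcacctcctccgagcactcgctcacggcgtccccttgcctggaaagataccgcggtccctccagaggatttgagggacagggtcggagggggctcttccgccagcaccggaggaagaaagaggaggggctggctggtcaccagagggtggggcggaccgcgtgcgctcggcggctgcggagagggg
The E2F motif was searched on both strands as TTTGGCGC, TTTGCCGC, TTTCGCGC or TTTCCCGC, and 2.79% of 35116 promoter windows of this length hold it. RBL1 holds 2 matches, and no window of RBL2, CDKN2A, CDKN2B, CDKN2C, CDKN2D or CDKN1B holds one. The only RB1 window in the RefSeq table, at chr13:48476200-48476449, lies inside the gene, so that the promoter before its first exon was not searched, and neither were those of CCND1 and CDKN1C. The sequence TTTGAA of the cell cycle homology region was found in 13.3% of all windows and in none of the windows searched for these genes. The antioxidant response motif TGACNNNGC was found in 10.9% of all windows and, among these members, in that of CDKN1B. A motif match is a description of the letters and not of binding.

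The levels of most of the 10 genes differed between the cell lines, compared over libraries with PBS and with H2O2. Counts were divided by DESeq2 size factors over the 8 libraries to give normalized counts, and the lines were compared with edgeR's quasi-likelihood test over the 4 matched conditions. Of the 10 genes, 3 were higher and 6 lower in DU145 cells at an adjusted p under 0.05, whereas 63.2% of the 19784 genes tested passed in either direction, 5959 higher and 6541 lower. For 9 of the 10 genes, the 4 libraries of one line did not overlap with those of the other, against 55.2% of the 19784 genes tested. With total counts in place of size factors this held for 7 genes, against 56.3% of all genes tested. It no longer held for RBL1 and CDKN2B.

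**Figure D1:**
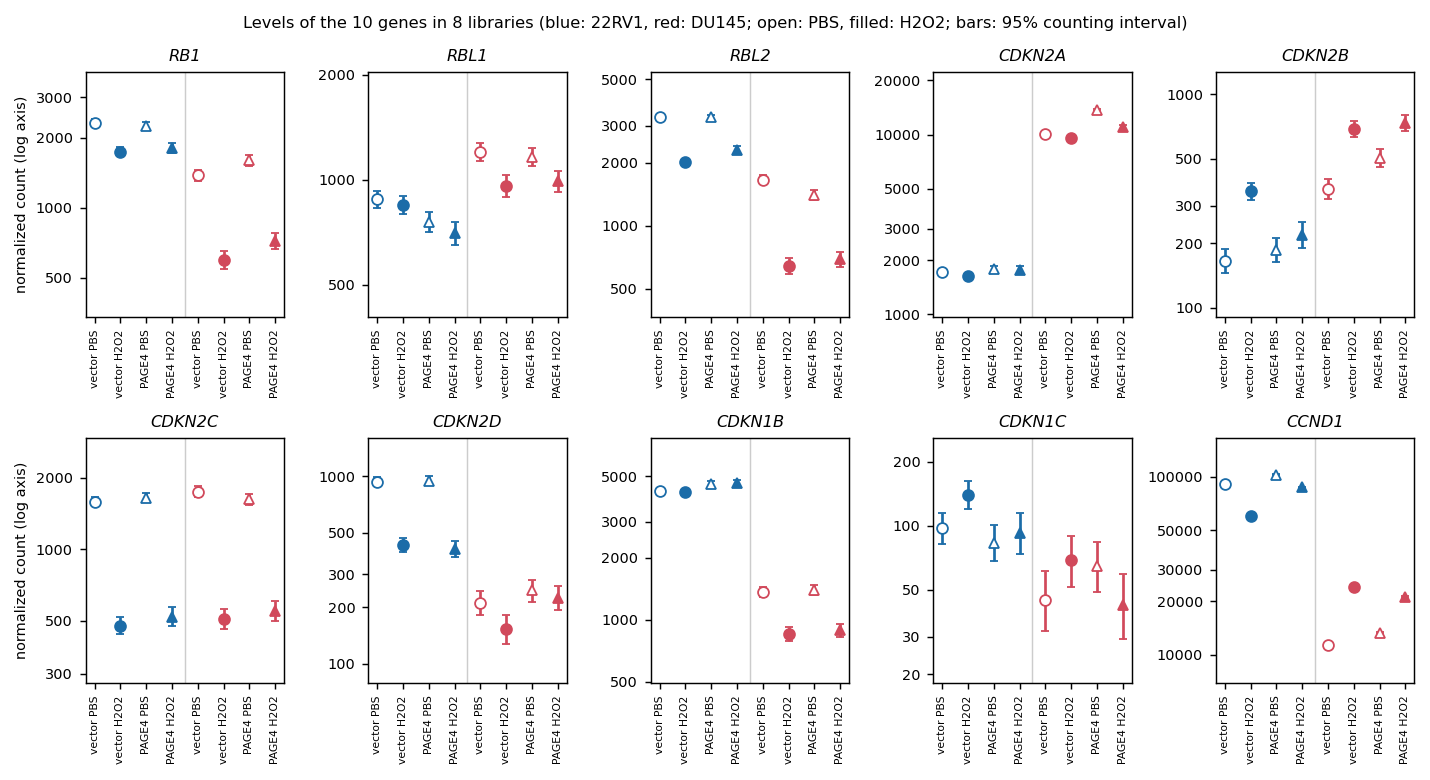
Normalized counts (log axis) of the 10 genes in the 8 libraries, with 22RV1 in blue and DU145 in red, vector as circles and PAGE4 as triangles, PBS open and H2O2 filled, and bars for the 95% counting interval. CDKN2A lies between 1625 and 1784 in 22RV1 and above 9576 in DU145, whereas CDKN2C falls with H2O2 to about the same level in both lines.

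CDKN2A had the largest difference between the lines. Its normalized counts in 22RV1 were 1711 (vector, PBS), 1625 (vector, H2O2), 1784 (PAGE4, PBS) and 1763 (PAGE4, H2O2). Taken in that order, which is kept below, DU145 had 10032, 9576, 13691.5 and 11004. Every DU145 library lay above every 22RV1 library, with a ratio of means of 6.44 and a log2 difference of 2.66 (SE 0.11, adjusted p = 1.67e-06 by edgeR's quasi-likelihood test). CDKN2A lies on chromosome 9 of GRCh38 from 21967752 to 21995301. Its exons share 593 bases, 15.3% of their length, with those of CDKN2B-AS1 on the opposite strand. CDKN2B-AS1 had counts from 11 to 58, whereas CDKN2A had 1618 to 12089. CDKN2B, the neighbour of CDKN2A on chromosome 9 from 22002903 to 22009305, was also higher in DU145 cells. Its levels were 166, 351, 186 and 219 in 22RV1 cells and 359.8, 689.8, 503 and 734 in DU145 cells, a log2 difference of 1.31 (SE 0.18, adjusted p = 0.00047 by edgeR's quasi-likelihood test). The DU145 libraries again lay above all 22RV1 libraries, although the lowest of them, vector cells with PBS, was close to the highest 22RV1 library. With total counts in place of size factors, the CDKN2B levels of the lines overlapped. The edgeR call of CDKN2B held with total counts (1.10, adjusted p = 0.00123 by the quasi-likelihood test).

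CCND1 and CDKN1B were the most reduced in DU145 cells. CCND1, on chromosome 11 from 69641156 to 69654474, had levels of 91639, 60377, 103015 and 87329 in 22RV1 cells against 11409.5, 23936, 13286 and 21236 in DU145 cells. The lowest 22RV1 library, vector cells with H2O2, was above the highest DU145 library, vector cells with H2O2. The mean was 4.90-fold higher in 22RV1 cells and the log2 difference was -2.35 (SE 0.28, adjusted p = 0.000204 by edgeR's quasi-likelihood test). CDKN1B, on chromosome 12 from 12685498 to 12722369, had levels of 4204, 4172, 4591 and 4647 in 22RV1 cells against 1366, 855, 1399.8 and 889.8 in DU145 cells. The mean was 3.90-fold higher in 22RV1 cells and the log2 difference was -2.01 (SE 0.16, adjusted p = 3.08e-05 by edgeR's quasi-likelihood test).

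CDKN2D, RBL2 and RB1 were lower in DU145 cells as well, by log2 differences of -1.64, -1.40 and -1.03, and edgeR's quasi-likelihood test gave adjusted p-values of 0.000453, 0.000126 and 0.00215. RBL1 went the other way with 0.43 (SE 0.13, adjusted p = 0.0193 by edgeR's quasi-likelihood test), but this call was lost when total counts replaced TMM scaling (0.23, adjusted p = 0.167) and when the vector PBS, PAGE4 PBS or PAGE4 H2O2 conditions were left out in turn (adjusted p from 0.0531 to 0.0879). CDKN1C was lower by -0.92 (SE 0.26, adjusted p = 0.0166 by edgeR's quasi-likelihood test), on counts of 34 to 179. It lost the call without the vector PBS, vector H2O2 or PAGE4 H2O2 condition (adjusted p from 0.0541 to 0.0634). CDKN2C was the exception, with a log2 difference of 0.06 and a 95% interval from -0.18 to 0.31. Against the same scaling change, the median difference over all genes moved from -0.07 to -0.27.

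Per kb of merged exons, CCND1 was the highest of the 10 genes in both lines and CDKN1C the lowest. The mean in 22RV1 cells was 17977 normalized counts per kb for CCND1 and 476 for CDKN1B, which came next. From CDKN1B through CDKN2D, CDKN2A, CDKN2C and RBL2 to RB1 at 316, the range over libraries of each gene overlapped with that of the next. RBL1 at 134 and CDKN2B at 57.6 lay below without overlap, and CDKN2B overlapped with CDKN1C at 41.7. In DU145 cells, CCND1 at 3669 and CDKN2A at 2851 overlapped and stood apart from the rest. From CDKN2C at 367 down to CDKN1B at 122, the order being CDKN2C, RBL1, RB1, CDKN2B, CDKN2D, RBL2 and CDKN1B, each gene overlapped with the next, and CDKN1C at 22.2 did not. With the length of the MANE Select transcript in place of merged exons, CDKN2A came before CCND1 in DU145 cells at 11325 against 4121 normalized counts per kb. CDKN1B then moved from rank 9 to rank 4 in DU145 cells, at 468. In 22RV1 cells, CDKN2D moved from rank 3 to rank 6, at 479. The order of the genes above CDKN1C therefore depends on the length used, in DU145 cells including the first place.

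With H2O2, RNA of CDKN2C, RBL2, RB1 and CDKN2D fell over the 4 pairs and that of CDKN2B rose. In edgeR's quasi-likelihood test with the 4 pairs of H2O2 and PBS libraries as blocks, 1 of the 10 genes was higher and 4 were lower with H2O2 at an adjusted p under 0.05, against 20.1% of 22418 genes tested in either direction, 1994 higher and 2512 lower. Tested within 22RV1 cells, where 27.7% of genes passed (2864 higher, 3346 lower), 1 was higher and 5 lower. Tested within DU145 cells, where 36.7% passed (3783 higher, 4442 lower), 2 were higher and 6 lower. The median log2 change of the 10 genes over the 4 pairs was -0.26, and that of all genes -0.03. When total counts replaced TMM scaling, the median over all genes in 22RV1 cells moved from -0.0017 to 0.12. The share of higher calls then moved from 44.3% to 61.0% over the 4 pairs and from 46.1% to 64.4% in 22RV1 cells.

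**Figure D2:**
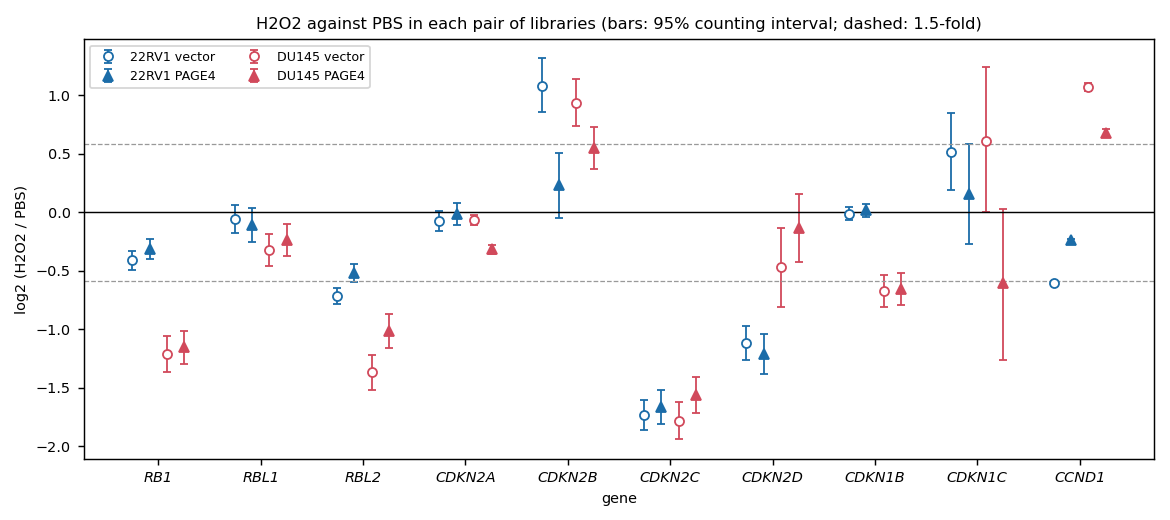
Log2 ratio of H2O2 to PBS for the 10 genes (x axis) in the 4 pairs of libraries, 22RV1 in blue and DU145 in red, vector as open circles and PAGE4 as filled triangles, with bars for the 95% counting interval and dashed lines at 1.5-fold. CDKN2C is between -1.78 and -1.56 in all 4 pairs, and CCND1 is below 0 in both 22RV1 pairs and above 0 in both DU145 pairs.

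CDKN2C, which encodes p18INK4c and lies on chromosome 1 from 50960745 to 50974634, was the most reduced of the 10. In 22RV1 its level went from 1586 to 478 in vector cells and from 1648 to 521 in PAGE4 cells. In DU145 it went from 1749 to 509 in vector cells and from 1623 to 550.1 in PAGE4 cells. All 4 PBS libraries lay far above all 4 H2O2 libraries, with H2O2 levels between 0.291 and 0.339 of the PBS level. The log2 change over the 4 pairs was -1.69 (SE 0.10, adjusted p = 0.000344 by edgeR's quasi-likelihood test), with -1.68 in 22RV1 and -1.69 in DU145. The difference between these was -0.01 with a 95% interval from -0.35 to 0.33. A lncRNA on the opposite strand shares 617 bases, 20.4%, of the CDKN2C exons, and the strand setting of the counting is not given in the sources used here.

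CDKN2B moved against CDKN2C. Its levels rose from 166 to 351 in 22RV1 vector cells, were 186 and 219 in 22RV1 PAGE4 cells, and rose from 359.8 to 689.8 and from 503 to 734 in DU145 vector and PAGE4 cells. The 22RV1 PAGE4 pair was the smallest, with a log2 ratio of 0.23 and a counting interval from -0.05 to 0.51, and the other 3 pairs were at 1.08, 0.94 and 0.55. Over the 4 pairs the log2 change was 0.70 (SE 0.17, adjusted p = 0.0271 by edgeR's quasi-likelihood test). This call was lost without the 22RV1 vector pair (0.59, adjusted p = 0.0894), without the DU145 vector pair (0.62, adjusted p = 0.114) or without the DU145 PAGE4 pair (0.76, adjusted p = 0.0604). In 22RV1 cells alone the change was 0.69 (adjusted p = 0.0144 by edgeR's quasi-likelihood test), and the call was lost without the vector pair (0.23, adjusted p = 0.595) and with additive terms in place of the blocks (0.72, adjusted p = 0.0607). In DU145 cells alone it was 0.72 (adjusted p = 0.00561 by edgeR's quasi-likelihood test), and 0.52 (adjusted p = 0.174) without the vector pair.

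The ratio of CDKN2B to CDKN2C reads within a library does not depend on any scaling. It went from 0.104 to 0.735 in 22RV1 vector cells and from 0.113 to 0.421 in 22RV1 PAGE4 cells. In DU145 cells it went from 0.206 to 1.36 in vector cells and from 0.310 to 1.33 in PAGE4 cells. Reads of CDKN2B exceeded those of CDKN2C only in the 2 DU145 libraries with H2O2.

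The other INK4 genes differed from both. CDKN2D, which encodes p19INK4d on chromosome 19 from 10566460 to 10569059, fell from 938 to 432 in 22RV1 vector cells and from 949.7 to 411 in 22RV1 PAGE4 cells. In DU145 cells its levels were 211 and 152 in vector cells and 246 and 224 in PAGE4 cells, so that the pairs of the 2 lines did not overlap in size. The log2 change was -1.15 in 22RV1 cells (SE 0.15, adjusted p = 1.49e-05) and -0.31 in DU145 cells (SE 0.17, adjusted p = 0.168) by edgeR's quasi-likelihood test. Over the 4 pairs it was -0.76 (adjusted p = 0.0323 by edgeR's quasi-likelihood test), and this call was lost without the 22RV1 vector pair (-0.61, adjusted p = 0.140), the 22RV1 PAGE4 pair (-0.58, adjusted p = 0.118) or the DU145 vector pair (-0.84, adjusted p = 0.0547). CDKN2A changed by -0.12 over the 4 pairs (95% interval from -0.33 to 0.09). In DU145 cells it was called lower at -0.21 (adjusted p = 0.0451 by edgeR's quasi-likelihood test), with a log2 ratio of -0.07 for the vector pair and one of -0.32 for the PAGE4 pair. That call was lost under every alternative scaling, filter, model and tool tried, and without the DU145 PAGE4 pair (-0.09, adjusted p = 0.717).

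Among the pocket protein genes, RB1 and RBL2 fell in both lines. RB1, on chromosome 13 from 48303744 to 48599436, had levels in 22RV1 cells of 2325 with PBS and 1748 with H2O2 in vector cells, and of 2253 and 1813 in PAGE4 cells. In DU145 cells it fell from 1383 to 597 in vector cells and from 1604 to 722 in PAGE4 cells. All 4 pairs were lower with H2O2, and both DU145 pairs, with log2 ratios of -1.21 and -1.15, fell further than the 22RV1 pairs with -0.41 and -0.31. The change was -0.35 in 22RV1 cells (SE 0.10, adjusted p = 0.0111) and -1.20 in DU145 cells (SE 0.10, adjusted p = 1.05e-07) by edgeR's quasi-likelihood test. The 22RV1 call was lost with total counts (-0.22, adjusted p = 0.0939), with additive terms in place of the blocks (adjusted p = 0.0512) and without the 22RV1 vector pair (-0.31, adjusted p = 0.101). Over the 4 pairs, the change was -0.77 (SE 0.18, adjusted p = 0.0216 by edgeR's quasi-likelihood test), with adjusted p = 0.0706 without the DU145 vector pair and 0.0598 without the DU145 PAGE4 pair.

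RBL2, which encodes p130 on chromosome 16 from 53433977 to 53491648, had levels in 22RV1 cells of 3292 with PBS and 2003 with H2O2 in vector cells, and of 3287 and 2291 in PAGE4 cells. In DU145 cells it fell from 1658 to 642 in vector cells and from 1399 to 692 in PAGE4 cells. Every H2O2 library of a line lay below every PBS library of that line. The change was -0.60 in 22RV1 cells (SE 0.10, adjusted p = 0.000223) and -1.21 in DU145 cells (SE 0.11, adjusted p = 1.91e-07) by edgeR's quasi-likelihood test. The exons of RBL2 share 609 bases, 7.5%, with AKTIP on the opposite strand, whose counts of 429 to 902 lie in the range of the lowest RBL2 counts, and whether reads were shared was not tested.

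RBL1, which encodes p107 on chromosome 20 from 36996349 to 37095997, changed least of the pocket protein genes. Its levels in 22RV1 cells were 879 with PBS and 846 with H2O2 in vector cells, and 757 and 702 in PAGE4 cells. In DU145 cells they were 1200.5 and 961 in vector cells, and 1164 and 989 in PAGE4 cells. The change over the 4 pairs was -0.18 (95% interval from -0.44 to 0.07). In DU145 cells it was called lower at -0.30 (adjusted p = 0.0487 by edgeR's quasi-likelihood test), a call that was lost under every alternative scaling, filter, model and tool tried, and without the DU145 vector pair (-0.26, adjusted p = 0.407) or the DU145 PAGE4 pair (-0.34, adjusted p = 0.238). As a share of all reads of the 3 pocket protein genes, RBL1 went from 28.3% to 43.7% in DU145 vector cells and from 27.9% to 41.2% in DU145 PAGE4 cells. In 22RV1 cells its share went from 13.5% to 18.4% and from 12.0% to 14.6%.

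The Cip/Kip gene CDKN1B fell with H2O2 in DU145 cells, from 1366 to 855 in vector cells and from 1399.8 to 889.8 in PAGE4 cells. In 22RV1 cells its levels were 4204 with PBS and 4172 with H2O2 in vector cells, and 4591 and 4647 in PAGE4 cells. The change was -0.69 in DU145 cells (SE 0.09, adjusted p = 1.19e-05) and 0.02 in 22RV1 cells (95% interval from -0.16 to 0.19) by edgeR's quasi-likelihood test. CDKN1C, a gene of the imprinted region of chromosome 11 from 2883213 to 2885775, had levels of 97.6 with PBS and 139.9 with H2O2 in 22RV1 vector cells, and 83.1 and 92.6 in 22RV1 PAGE4 cells. In DU145 cells they were 44.8 and 68.7 in vector cells, and 64.6 and 42.3 in PAGE4 cells. The DU145 pairs went in opposite directions, and the change over the 4 pairs was 0.19 with a wide 95% interval from -0.44 to 0.81.

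CCND1 went in opposite directions in the 2 lines. In 22RV1 cells, its level fell from 91639 to 60377 in vector cells and from 103015 to 87329 in PAGE4 cells. In DU145 cells, it rose from 11409.5 to 23936 in vector cells and from 13286 to 21236 in PAGE4 cells. In both lines the PAGE4 pair had the smaller change, with log2 ratios of -0.24 against -0.60 in 22RV1 cells and 0.68 against 1.07 in DU145 cells, and this difference between constructs was not tested. The change was -0.41 in 22RV1 cells (SE 0.09, adjusted p = 0.00215) and 0.85 in DU145 cells (SE 0.09, adjusted p = 9.38e-07) by edgeR's quasi-likelihood test. Over the 4 pairs it was 0.22 (95% interval from -0.35 to 0.79). The exons of CCND1 share 497 bases, 10.4%, with LTO1 on the opposite strand, listed as ORAOV1 with counts of 595 to 1441 against at least 10179 for CCND1. Per CDKN1B read, there were 8.35 CCND1 reads in DU145 vector cells with PBS and 28.0 with H2O2, and 9.49 and 23.9 in PAGE4 cells. The same ratio went from 21.8 to 14.5 in 22RV1 vector cells and from 22.4 to 18.8 in PAGE4 cells.

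The H2O2 effects of the 2 lines were then compared with each other. In the test of the difference, DU145 minus 22RV1, 2 of the 10 genes were higher and 3 lower, against 16.3% of 22418 genes in either direction (1691 higher, 1964 lower). CCND1 differed by 1.26 (SE 0.13, adjusted p = 2.78e-06 by edgeR's quasi-likelihood test), the largest of the 10. RB1 differed by -0.86 (adjusted p = 0.000413) and CDKN1B by -0.71 (adjusted p = 0.000709) by edgeR's quasi-likelihood test. RBL2 differed by -0.61 (adjusted p = 0.00896 by edgeR's quasi-likelihood test), and by -0.43 (adjusted p = 0.178) without the DU145 vector pair. CDKN2D differed by 0.83 (adjusted p = 0.0165 by edgeR's quasi-likelihood test), and by 0.66 (adjusted p = 0.216) without the DU145 PAGE4 pair and 0.84 (adjusted p = 0.0741) with additive terms. CDKN2B had a difference of 0.02, and its 95% interval from -0.55 to 0.60 is wide.

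**Figure D3:**
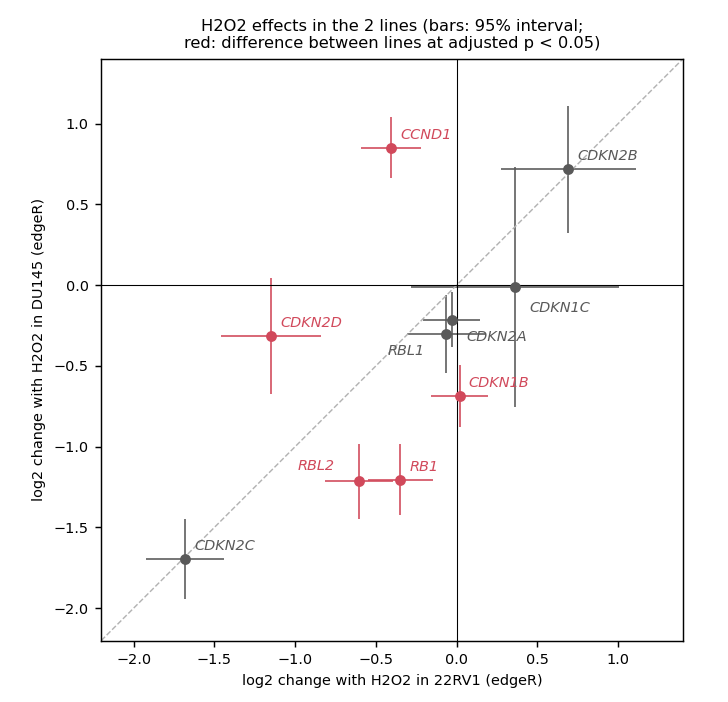
Log2 change with H2O2 in 22RV1 cells (x axis) against that in DU145 cells (y axis) for the 10 genes, from edgeR, with bars for 95% intervals, a dashed line of equal change, and red for genes whose difference between lines passed. CDKN2C and CDKN2B lie on the line of equal change, and CCND1 is at -0.41 in 22RV1 and 0.85 in DU145.

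PAGE4 cells were then compared with vector cells. Over the 4 pairs of PAGE4 and vector libraries, 0 of the 10 genes passed in edgeR's quasi-likelihood test and 1 had an unadjusted p under 0.05, and DESeq2's Wald test gave 0 and 1. Among all 22418 genes 0.174% passed in the edgeR test (22 higher, 17 lower), and 1731 had an unadjusted p under 0.05. Of the 10 genes, the one with an unadjusted p under 0.05 was CDKN2A. Its log2 ratios were 0.06 and 0.12 in 22RV1 cells with PBS and H2O2, and 0.45 and 0.20 in DU145 cells. It was higher in 4 of 4 pairs, by 0.20 (SE 0.07, adjusted p = 0.558 by edgeR's quasi-likelihood test). The 95% intervals over the 4 pairs were from -0.08 to 0.28 for RB1, from -0.16 to 0.21 for CDKN2C and from -0.06 to 0.22 for CDKN1B. CCND1 was at 0.17 (adjusted p = 0.719 by edgeR's quasi-likelihood test) and passed without a filter on low counts (adjusted p = 0.0299).

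In 22RV1 cells, 1 of the 10 genes was higher in PAGE4 cells and 0 lower, against 4.28% of genes in either direction (481 higher, 479 lower). This was CCND1 at 0.33 (SE 0.09, adjusted p = 0.0445 by edgeR's quasi-likelihood test), with log2 ratios of 0.17 with PBS and 0.53 with H2O2. The call was lost without the H2O2 pair (0.16, adjusted p = 0.362), with total counts (0.31, adjusted p = 0.0514) and with additive terms (0.29, adjusted p = 1). In DU145 cells, the log2 ratios of CCND1 were 0.22 with PBS and -0.17 with H2O2, and 0 of the 10 genes passed in edgeR's quasi-likelihood test, 3 had an unadjusted p under 0.05, and DESeq2's Wald test gave 0 and 1. The share of all genes called in DU145 cells was 0.17% (25 higher, 13 lower). In the same edgeR test, 1685 of 22418 genes had an unadjusted p under 0.05. CDKN2A came nearest in DU145 cells with 0.32 (SE 0.08, adjusted p = 0.155 by edgeR's quasi-likelihood test), and passed without the 22RV1 PBS pair (adjusted p = 0.00093), without the 22RV1 H2O2 pair (adjusted p = 0.00106) and without a filter on low counts (adjusted p = 0.00922). For the difference between the lines, 0 of the 10 genes passed in edgeR's quasi-likelihood test and 2 had an unadjusted p under 0.05. DESeq2's Wald test gave 0 and 1. Among all 22418 genes, 1.84% passed in the edgeR test (219 higher, 194 lower) and 2825 had an unadjusted p under 0.05. CCND1 had a difference of -0.31 (adjusted p = 0.301 by edgeR's quasi-likelihood test), which passed without the 22RV1 PBS pair (-0.50, adjusted p = 6.93e-05), without the DU145 PBS pair (-0.50, adjusted p = 0.0108) and without a filter (-0.29, adjusted p = 0.00617).

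With H2O2, PAGE4 cells and vector cells were also compared as 2 libraries by the fold change limit of 1.5 that the study used, where the line's mean level was 10 or more. In 22RV1 cells, 2 of the 10 genes passed, both lower, against 21.4% of 19444 genes (2139 higher, 2028 lower). CDKN2B was at 219 in PAGE4 cells and 351 in vector cells, a log2 ratio of -0.68 with a counting interval from -0.93 to -0.44. CDKN1C was at 92.6 against 139.9, a log2 ratio of -0.59 with an interval from -0.99 to -0.22. In DU145 cells, 1 of the 10 genes passed, against 16.9% of 18784 genes (1445 higher, 1735 lower). This was CDKN1C at 42.3 against 68.7, with a log2 ratio of -0.69 and an interval from -1.36 to -0.06 on 34 and 55 reads. With PBS, CDKN1C had a log2 ratio of -0.23 in 22RV1 and one of 0.52 in DU145, both with intervals that include 0. These comparisons have no replicate check.

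**Figure D4:**
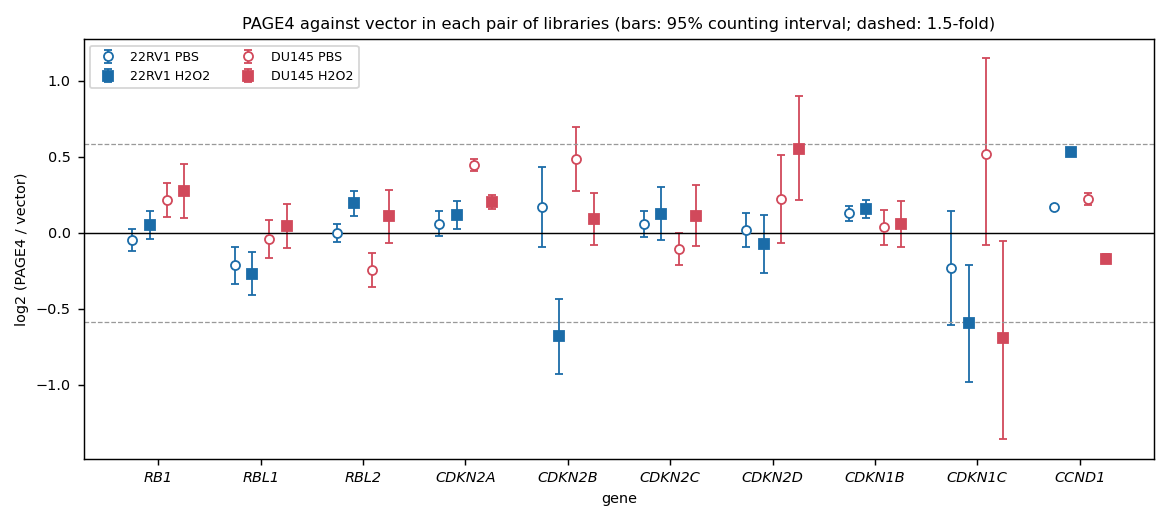
Log2 ratio of PAGE4 to vector for the 10 genes (x axis) in the 4 pairs of libraries, 22RV1 in blue and DU145 in red, PBS as open circles and H2O2 as filled squares, with bars for the 95% counting interval and dashed lines at 1.5-fold. Most ratios lie within the dashed lines, and those beyond are CDKN2B at -0.68 and CDKN1C at -0.59 in 22RV1 with H2O2 and CDKN1C at -0.69 in DU145 with H2O2.

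The other genes of the checkpoint were counted in 7 lists with 75 genes. Among 22 E2F target genes of S phase, such as those of the MCM helicase and of nucleotide synthesis, 22RV1 cells had 0 higher and 21 lower with H2O2, while DU145 cells had 3 higher and 10 lower, in edgeR's quasi-likelihood test. Their median log2 change was -0.67 in 22RV1 (-0.0017 over all genes) and -0.19 in DU145 (-0.03 over all genes). Among all 22418 genes tested, 27.7% passed with H2O2 in 22RV1 cells (2864 higher, 3346 lower) and 36.7% in DU145 cells (3783 higher, 4442 lower). For the difference between these H2O2 effects, DU145 minus 22RV1, 9 of the 22 were higher and 1 lower by the same test. Over all genes tested, 16.3% passed in either direction.

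Over the 4 pairs, 20.1% of all genes tested passed in either direction, 1994 higher and 2512 lower. Of the 10 E2F and DP factors, 1 was higher and 5 were lower over these pairs. The repressor gene E2F6 rose by 0.55 (adjusted p = 0.0479 by edgeR's quasi-likelihood test), and the atypical repressor gene E2F8 fell by 0.95 (adjusted p = 0.00277 by edgeR's quasi-likelihood test). Of 8 genes listed as MuvB and DREAM partners, 0 were higher and 4 lower, with MYBL1 lowest at -1.25 (adjusted p = 0.000871 by edgeR's quasi-likelihood test). Of 11 G1/S cyclins and kinases that could be tested, 0 were higher and 3 lower, with the cyclin A2 gene CCNA2 lowest at -0.95 (adjusted p = 0.00733 by edgeR's quasi-likelihood test). CCND2 did not pass the filter on low counts.

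Among 9 genes of p27 turnover together with CDKN1A, 3 were higher and 1 lower over the 4 pairs. For this list and those that follow, the share of all genes tested that passed was again 20.1%. CDKN1A, which encodes the third Cip/Kip inhibitor p21, had the largest rise with 2.61 (SE 0.21, adjusted p = 0.0007 by edgeR's quasi-likelihood test), being 3.10 in 22RV1 and 2.11 in DU145. CKS1B, a cofactor in p27 degradation, fell by 0.36 (adjusted p = 0.039 by edgeR's quasi-likelihood test). Of 9 neighbours and Polycomb regulators of the CDKN2A-CDKN2B locus, 0 were higher and 1 lower, which was the Polycomb gene CBX7 at -1.03 (adjusted p = 0.00315 by edgeR's quasi-likelihood test). Of 5 neighbours of CDKN1C, PHLDA2, an imprinted gene beside it, rose by 1.39 (adjusted p = 0.000673 by edgeR's quasi-likelihood test) and 0 fell. Over the 4 pairs of PAGE4 and vector libraries, 0 of the 74 list genes tested passed in edgeR's quasi-likelihood test. An unadjusted p under 0.05 was found for 6 of these 74, and for 1731 of all 22418 genes, in that test. For the list genes, DESeq2's Wald test gave 0 and 5.

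**Figure D5:**
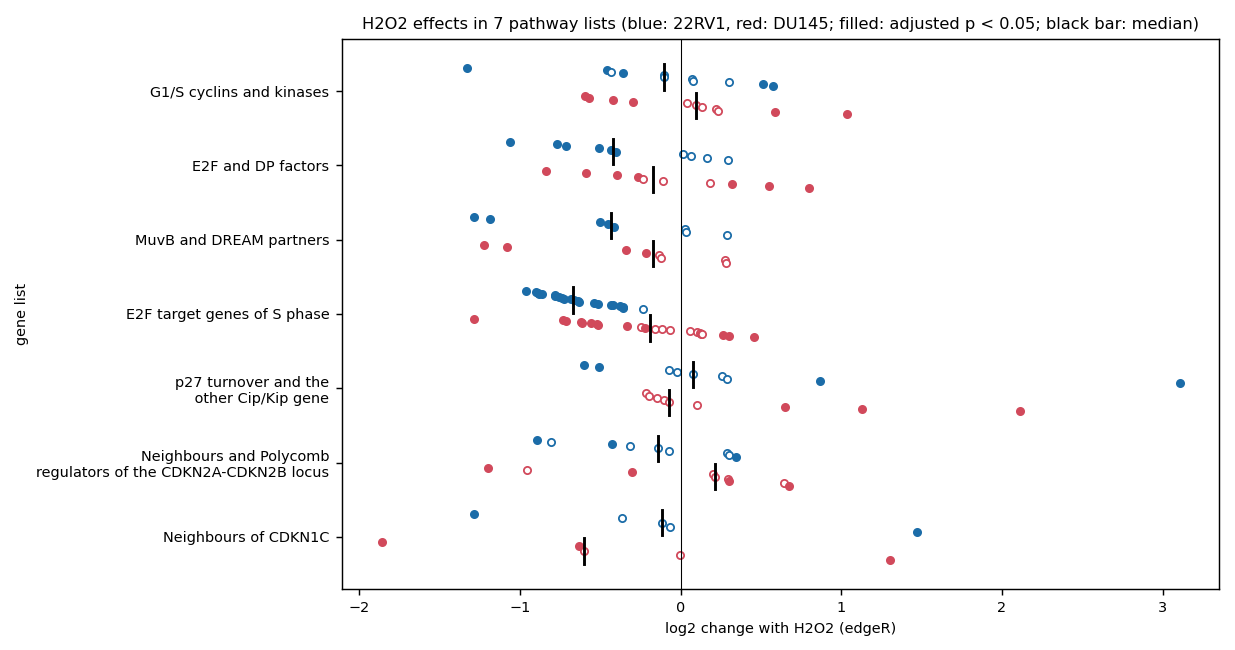
Log2 change with H2O2 (x axis) of the tested genes of 7 pathway lists (y axis), from edgeR, with 22RV1 in blue and DU145 in red, filled where the adjusted p was under 0.05, and black bars for medians. The E2F target genes of S phase lie below 0 in 22RV1 with a median of -0.67 and on both sides of 0 in DU145 with a median of -0.19.

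Between the lines, 52 of the 74 list genes tested passed, against 63.2% of all 19784 genes tested (5959 higher, 6541 lower). The genes named here are called genes with the largest rise or fall of a list, so that both directions appear by this choice. In DU145 cells, CBX7 was lower by -2.15 (adjusted p = 1.79e-05) and the Polycomb gene BMI1 higher by 1.37 (adjusted p = 0.000274) by edgeR's quasi-likelihood test. CDKN1A was lower by -2.16 (adjusted p = 8.67e-05), whereas SKP2, the ubiquitin ligase subunit that recognises p27, was higher by 1.14 (adjusted p = 0.00018) by edgeR's quasi-likelihood test. KCNQ1OT1, a long noncoding RNA antisense to KCNQ1 in the imprinted region of CDKN1C, had counts of 34, 9, 14 and 3 in DU145 cells. KCNQ1OT1 was lower by -6.00 (adjusted p = 5.09e-06) and KCNQ1 higher by 2.12 (adjusted p = 0.000443) by edgeR's quasi-likelihood test. KCNQ1OT1 lies within the bounds of KCNQ1 on the opposite strand, and whether reads were shared was not tested. The cyclin E genes went apart, with CCNE1 higher by 1.57 (adjusted p = 0.000173) and CCNE2 lower by -0.80 (adjusted p = 0.00719) by edgeR's quasi-likelihood test. E2F5 was higher by 1.56 (adjusted p = 6.47e-05) and E2F7 lower by -1.39 (adjusted p = 4.03e-05), and MYBL1 was higher by 1.23 (adjusted p = 0.00105) and LIN54 lower by -1.01 (adjusted p = 0.000261), by edgeR's quasi-likelihood test. Among the S phase genes, UHRF1 was higher by 1.96 (adjusted p = 0.000112) by edgeR's quasi-likelihood test.

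For RB1, CDKN1B, CDKN2C and CCND1, the genes with the most similar levels were sought by Pearson correlation of log2 levels centred within each line, over 8 libraries and among 12388 genes. CDKN2C was followed most closely by SPC24, BRCA1 and NCAPG, with r from 0.998 to 0.999. The nearest to RB1 were PDE6D, JAZF1 and EDA, with r of at least 0.995. The nearest to CDKN1B were ANXA4, DENND3 and TTC23, with r of at least 0.992, and the nearest to CCND1 were UPF3A, DENND4B and KIAA1324, with r of at least 0.991. With 8 libraries that share treatment and depth, high correlations are common, and these are descriptions.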

How the data were processed

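RNA-seq of 8 libraries was analysed. HISAT2 2.1.0 and featureCounts 1.6.0 were the authors' aligner (on GRCh38) and counter. Their deposited tables, 1 for each line, hold whole-number read counts that were not normalized. The annotation and strand setting are not given in the sources used here. The tables were joined on gene symbols, of which 26 had been turned into dates and were kept as written.

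Tests used R 4.3.3 and the quasi-likelihood method of edgeR 4.0.16, scaled by TMM, its filter on low counts, 4 pairs as blocks, and Benjamini-Hochberg adjustment over all genes tested. Effects within a line and their difference came from 1 model of all 8 libraries. Displayed levels used size factors of DESeq2 1.42.0, and log2 ratios of levels a pseudocount of 0.5. Ratios of 2 libraries have exact Clopper-Pearson intervals at 95%, and levels exact Poisson intervals. Coordinates and lengths are from GENCODE release 44. Simulated counts served to check the tests. The members and lists were chosen with earlier results of these data known. From each list, the called genes with the largest rise and fall with H2O2 over 4 pairs and between lines are named, and some are not reported here. Likeness was computed among genes with a mean level of at least 50 in both lines.

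Alternatives were DESeq2 size factors, no filter on low counts, DESeq2's Wald test, additive terms, each pair left out, and for 2 libraries other scalings, minimum means, a pseudocount of 1 and a fold change over 2. Total counts as scaling and MANE Select lengths were added after seeing the data. Numpy, scipy, pandas and matplotlib were used.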

Additional observations from a re-analysis of the deposited data

Results flagged for a closer look

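Among the 10 genes, 5 had H2O2 effects that differed between DU145 and 22RV1 cells in edgeR's quasi-likelihood test of the difference itself, which 16.3% of all genes tested passed. On the log2 scale, DU145 minus 22RV1, the difference was 1.26 for CCND1, 0.83 for CDKN2D, -0.61 for RBL2, -0.71 for CDKN1B and -0.86 for RB1. CCND1 was higher with H2O2 in 2 of 2 DU145 pairs and lower in 2 of 2 22RV1 pairs. For the other 4 genes, the 2 pairs of one line changed more than the 2 pairs of the other. The call was lost for RBL2 without the DU145 vector pair (adjusted p = 0.178), and for CDKN2D without the DU145 PAGE4 pair (adjusted p = 0.216) or with additive terms in place of the blocks (adjusted p = 0.0741).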

How the results depend on the processing

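Numbers of genes called over all genes tested moved with the model and the libraries used, and the cause was not tested. With additive terms in place of the blocks, 1926 genes were called for the H2O2 difference between lines (3655 with blocks), 5 for PAGE4 over 4 pairs (39), 44 for PAGE4 in 22RV1 (960), 1 for PAGE4 in DU145 (38) and 5 for the PAGE4 difference (413). Without a filter on low counts, 483, 217 and 806 genes were called for PAGE4 over 4 pairs, in DU145 and for the difference. DESeq2's Wald test called 87 genes for PAGE4 over 4 pairs. For PAGE4 in DU145, DESeq2 size factors gave 62 genes and total counts 63. For PAGE4 against vector with H2O2, a mean of at least 50 gave 1605 genes in 22RV1 and 738 in DU145, no minimum beyond 1 count gave 16522 and 14226, and a fold change over 2 gave 1787 and 1427. With each pair left out in turn, calls ranged from 2103 to 4005 for H2O2 over 4 pairs, from 3702 to 6113 in 22RV1, from 5143 to 9326 in DU145 and from 2121 to 4252 for the difference. For PAGE4 they ranged from 18 to 129 over 4 pairs, from 776 to 1510 in 22RV1, from 15 to 390 in DU145 and from 244 to 1240 for the difference.

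Of the members' values, only some that had not passed their test changed sign. The H2O2 change of CDKN1B in 22RV1 was -0.026 without a filter and from -0.012 to 0.018 with a pair left out. The H2O2 difference of CDKN2C was 0.025 for DESeq2 size factors, 0.025 for DESeq2's Wald test, 0.065 for unfiltered counts and from -0.12 to 0.10 with a pair left out. That of CDKN2B was -0.022 with additive terms, -0.041 with total counts and from -0.33 to 0.52 with a pair left out. CCND1 with H2O2 over 4 pairs ranged from -0.059 to 0.51 with a pair left out. For PAGE4 in DU145, CCND1 was -0.022 with additive terms and from -0.17 to 0.22 with a pair left out. CDKN2C between the lines was -0.14 with total counts. Leaving out a pair can leave 1 pair in a line, which is then assumed to vary like the others. CDKN1C, with 34 to 179 counts, has the least depth of the members. The labels give no replicate numbers, and the pairs used as blocks join libraries by condition and not by replicate.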
